A study of Homo sapiens with 60 samples.

Results

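The genes described here are 49 genes of G2 and mitosis, taken by symbol from the 62703 rows of a table of read counts per gene. They code for the cyclins and kinases that drive entry into mitosis, the spindle checkpoint, the kinetochore, the mitotic motors and the proteins of cell division. The counts come from 1321N1 cells, an established human line derived from an astrocytoma, which was exposed in full medium to arsenic (sodium metaarsenite, 2.55 µM), to cadmium (cadmium chloride, 2.3 µM) or to mercury (mercury chloride, 20 µM), or was left non-treated. Collection took place at 5 times (1.5 h and 3 h, then 6 h, 12 h and 24 h), with 3 libraries of 3′ mRNA sequencing in each of the 20 groups, so that every metal has non-treated cells of the same time beside it. The doses were set by the study to be about equally toxic in this line, which is a single line carrying no other treatment. Per the study's methods, cells were seeded in multi-well plates and the treatments were done in triplicate. Neither the methods nor the labels say whether the 3 libraries of a group came from independent experiments. The legend of the study's figure that includes a heatmap of these data speaks of 3 or more independent experiments. That line stands for the figure as a whole and does not name the sequencing libraries. The p-values therefore measure the spread between these libraries, which may be no more than that between parallel wells.

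The 60 libraries held 2215276 to 4404609 counts each. As a check of the label, the astrocyte and glioma genes VIM (8390 to 21597 counts per library), CD44 (667 to 1740), SOX9 (106 to 478) and GLUL (42 to 117) were found in every library, NES (1 to 25), SLC1A3 (0 to 13) and FABP7 (0 to 4) were low, and GFAP (at most 3 counts), S100B (at most 1), AQP4 and ALDH1L1 (none) were at or near 0. Markers of other cell types reached at most 8 counts in any library. As a check of the treatment, HMOX1, the heme oxygenase induced by oxidative and metal stress, was higher at 24 h of each metal, by a log2 fold change (LFC) of 7.55 ± 0.18 for arsenic, 4.79 ± 0.18 for cadmium and 7.21 ± 0.18 for mercury (± standard error, SE, 3 against 3 libraries).

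A cell enters mitosis when CDK1, bound to a B-type cyclin, is switched on, and leaves it when the anaphase-promoting complex, first with CDC20, marks securin and the cyclins for destruction. The messenger RNAs of these genes rise together in G2, driven by the MuvB complex with MYBL2 and by FOXM1, and are kept low in resting cells by the DREAM complex, which holds their promoters at a short element called the CHR. They are therefore used as a sign of dividing cells, and their level in a culture depends on how many cells are in G2 or mitosis.

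The CHR, in the form TTTGAA alone, and the CCAAT box (CCAAT), which binds the factor NF-Y, were sought on both strands of the RefSeq promoters on GRCh38.p14. Each promoter runs from 250 bases before to 50 bases after an annotated start. Of the 49 genes, 42 had a promoter there. TTTGAA was found for 31 of the 42 (73.8%), against 15.2% of all 35116 promoters and 18.2% of the 27305 genes with a promoter. CCAAT was found for 34 of them (81%), against 34.6% of all promoters and 39.7% of genes, and both for 27 (64.3%), against 5.9% and 7.26%. A match describes the letters and is not a measured binding site. Other forms of the element were not sought, so a promoter without TTTGAA is not shown to lack a CHR. The 120 bases before the start are shown for the genes with the largest differences with mercury (CCNF, CDC20, MKI67 and PLK1), for CCNB1, which has no TTTGAA in its promoter, and for CKS1B and CKS2, which went the other way. Capitals mark TTTGAA and CCAAT on either strand (TTCAAA and ATTGG where the match is on the other strand), and in MKI67 the TTTGAA nearer to the start shares its last base with an ATTGG.
CCNF (chr16:2429327-2429446, + strand): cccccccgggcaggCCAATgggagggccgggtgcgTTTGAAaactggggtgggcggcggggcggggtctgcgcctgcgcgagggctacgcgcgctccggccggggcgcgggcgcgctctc
CDC20 (chr1:43358861-43358980, + strand): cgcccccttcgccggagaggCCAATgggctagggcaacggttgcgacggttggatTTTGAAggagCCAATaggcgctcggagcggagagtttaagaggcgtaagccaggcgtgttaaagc
MKI67 (chr10:128126424-128126543, - strand): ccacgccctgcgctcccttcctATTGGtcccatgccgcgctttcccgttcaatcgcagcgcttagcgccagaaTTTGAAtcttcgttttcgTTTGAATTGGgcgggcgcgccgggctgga
PLK1 (chr16:23678769-23678888, + strand): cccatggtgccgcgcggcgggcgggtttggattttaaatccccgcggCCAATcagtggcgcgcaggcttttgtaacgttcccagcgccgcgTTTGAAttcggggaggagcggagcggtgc
CCNB1 (chr5:69167030-69167149, + strand): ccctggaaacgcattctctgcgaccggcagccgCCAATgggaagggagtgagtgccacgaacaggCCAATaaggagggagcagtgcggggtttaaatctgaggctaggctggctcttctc
CKS1B (chr1:154974561-154974680, + strand): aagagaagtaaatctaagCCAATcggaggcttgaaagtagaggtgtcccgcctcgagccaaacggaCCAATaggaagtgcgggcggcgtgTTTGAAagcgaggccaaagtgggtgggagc
CKS2 (chr9:89311075-89311194, + strand): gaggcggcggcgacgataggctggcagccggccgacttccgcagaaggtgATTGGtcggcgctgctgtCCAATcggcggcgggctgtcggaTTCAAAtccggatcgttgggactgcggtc

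In PLK1 and CKS1B the first base of TTTGAA lay 29 and 30 bases before the start, and CKS2 had a match on the other strand at 29 bases. MKI67 carried TTTGAA 47 and 29 bases before the start. CDC20 and CCNF had it farther out, at 65 and 85 bases, and CDC20 had a further match on the other strand at 178 bases. The levels of CKS1B and CKS2 at 24 h of mercury differed in direction from that of PLK1, and a link of any level to these letters was not tested.

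Of the 49 genes, 48 passed the filter on low counts and were tested, with means of 78.8 counts per library for ESPL1 to 5632 for TOP2A and no library under 39 counts of any of them. The exception was NUSAP1, a spindle protein, which had 0 counts in all 60 libraries. On chromosome 15, 98.3% of the exon bases of NUSAP1 are shared on the same strand with a readthrough gene and with OIP5-AS1 in GENCODE 44, and the row of the readthrough gene was also at 0. For PRC1 this share was 65.2% and for BUB1B 10.5%, so that their counts may miss reads. All the other genes tested had no shared exon bases.

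Summed over the genes, the level in mercury-treated cells was below that in non-treated cells at every time. The share by which it fell short was larger at 6, 12 and 24 h than at 1.5 and 3 h. The level is given in CPM, counts scaled to a common library size and corrected for composition. At 24 h the sum was 10485, 10673 and 9903 CPM in the 3 non-treated libraries, 8999, 9092 and 8939 with arsenic, 8978, 8850 and 9295 with cadmium, and 7557, 7261 and 7537 with mercury. Every treated library of 24 h was below every non-treated library, and the mercury libraries were below those of the other metals. As a share of the non-treated mean, mercury stood at 94.4% at 1.5 h and 91.6% at 3 h, and went to 78.3%, 77% and 72% at 6, 12 and 24 h. Over the same 5 times arsenic stood at 102%, 97.7%, 89.3%, 92.9% and 87%, and cadmium at 101%, 99.5%, 91.1%, 95.2% and 87.3%. TOP2A alone made up 17.9% of the signal, and without it mercury at 24 h stood at 74.3%. In these bulk samples, fewer cells in G2 or mitosis and less RNA of these genes per cell cannot be told apart.

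At 1.5 and 3 h almost none of the genes differed from non-treated cells. At 1.5 h, edgeR's quasi-likelihood test called 0 of 48 genes with arsenic, 0 with cadmium and 0 with mercury (adjusted p under 0.05), where 0.0729%, 0% and 0.567% of all 12341 genes tested were called. An unadjusted p under 0.05 was reached by 8, 2 and 3 of them, and DESeq2 called 2, 0 and 0, the 2 being 1 lower and 1 higher. The gene that DESeq2 called higher with arsenic, INCENP, was also called by edgeR with no filter on low counts or with only the libraries compared, and CCNF, CDC20 and INCENP were called higher without arsenic replicate 3. At 3 h it called 0 with arsenic (6 at an unadjusted p under 0.05), 0 with cadmium (3) and 1 with mercury (11), against 0.138%, 0.203% and 1.55% of all genes, and DESeq2 called 0, 0 and 1. The gene called at 3 h was CCNF, which codes for cyclin F, the part of an SCF ubiquitin ligase that selects its targets. Its level was 63.4, 74.2 and 69.8 CPM in non-treated cells and 44.3, 41.9 and 50.9 CPM with mercury, with an LFC of -0.60 ± 0.15 (edgeR adjusted p = 0.0219). The groups did not overlap, but the call was lost without mercury replicate 1 or 2 or without non-treated replicate 2 or 3, which leaves 0 genes.

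From 6 h on, mercury lowered many of the genes, arsenic a smaller number that was largest at 24 h, and cadmium few. At 6 h, 27 of 48 were lower and 1 was higher with mercury, against 2.99% lower and 4.49% higher of all genes tested. At 12 h, 25 were lower with mercury (background 7.16% lower, 8.89% higher) and none was called higher by edgeR or DESeq2, with 32 at an unadjusted p under 0.05 in either direction. At 24 h, 32 were lower and 2 higher (background 13.9% lower, 13.9% higher). The 48 genes had a median LFC with mercury of -0.37, -0.37 and -0.47 at 6, 12 and 24 h, beside a median of -0.02 over all genes at each of these times. Most differences were small, since 3 genes had an LFC below -1 at 24 h, where 2.62% of all genes were lower by that much.

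With arsenic, 3 genes were lower at 6 h (background 0.308% lower, 0.608% higher), 3 at 12 h (1.74% and 2.37%) and 15 at 24 h (7.75% and 6.54%), and neither edgeR nor DESeq2 called any of the 48 higher at these times, except that CKS2 was called higher at 24 h by edgeR with no filter on low counts or without non-treated replicate 3. Those with an unadjusted p under 0.05 in either direction numbered 13, 9 and 19. With cadmium, 1 gene was lower at 6 h (background 0.446% lower, 1.6% higher), 2 at 12 h (2.99% and 5.19%) and 1 at 24 h (0.632% and 1.56%), again with none called higher by edgeR or DESeq2 in the fit over all libraries and with 12, 14 and 24 at an unadjusted p under 0.05. The counts of calls with cadmium rested on single libraries. At 6 h, 0 genes were left without cadmium replicate 3 and 4 were called without cadmium replicate 1. At 12 h, 0 were called without cadmium replicate 3 or non-treated replicate 1 or 3, and 1 without cadmium replicate 1. The genes called higher at 12 h were CKS2 with no filter, with only the libraries compared or without cadmium replicate 1, and CKS1B, CKS2 and UBE2C without non-treated replicate 2. At 24 h, 0 were left without cadmium replicate 1 or non-treated replicate 2, whereas 2, 4 and 3 were called without cadmium replicate 2, cadmium replicate 3 and non-treated replicate 3. The medians were -0.13, -0.07 and -0.14 with arsenic and -0.11, -0.08 and -0.20 with cadmium at 6, 12 and 24 h. With cadmium at 24 h, 40 of the 48 LFCs were negative while a single gene passed the test.

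**Figure D1:**
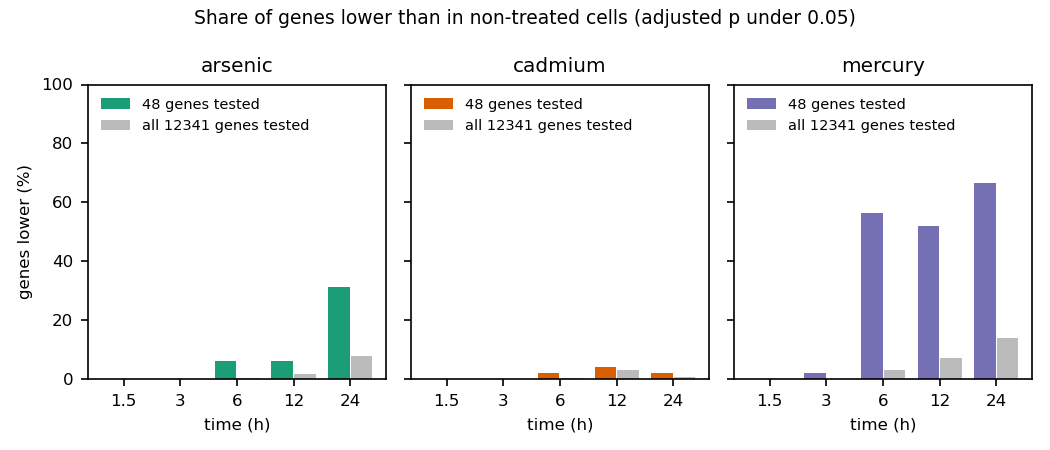
Share of genes called lower than in non-treated cells of the same time (y axis, percent, from 0) by time (x axis, h) for each metal; coloured bars are the 48 genes tested and grey bars all 12341 genes tested. With mercury 27, 25 and 32 of the 48 were lower at 6, 12 and 24 h, where 2.99%, 7.16% and 13.9% of all genes were.

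The genes with the largest differences at 24 h of mercury were CCNF, CDC20 and MKI67. CCNF was at 71.1, 71.0 and 69.2 CPM in non-treated cells and at 32.4, 29.1 and 34.4 CPM with mercury, with an LFC of -1.14 ± 0.16 (edgeR adjusted p = 4.75e-08). The groups were far apart, and the fitted fold left 45.4% of the non-treated level. With arsenic CCNF was at 40.8, 55.6 and 41.5 CPM (LFC -0.61 ± 0.15, adjusted p = 0.00314) and with cadmium at 59.8, 67.9 and 73.7 CPM (LFC -0.08 ± 0.15, adjusted p = 0.902). The arsenic libraries lay between the mercury and the non-treated ones without overlap, whereas the cadmium libraries overlapped the non-treated ones.

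CDC20, the activator that turns the anaphase-promoting complex on at the end of metaphase, was at 180, 176 and 189 CPM in non-treated cells of 24 h and at 91.3, 84.6 and 93.8 CPM with mercury. The mercury libraries did not overlap the others, and the fitted fold left 49.5% of the non-treated level (adjusted p = 2.54e-11). With arsenic CDC20 was at 138, 138 and 106 CPM (LFC -0.51 ± 0.11, adjusted p = 0.000372), and with cadmium at 172, 179 and 206 CPM (LFC 0.03 ± 0.11, adjusted p = 0.956). The order of the groups was therefore that of CCNF, with cadmium overlapping the non-treated cells.

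MKI67 codes for Ki-67, which coats mitotic chromosomes and serves as the common stain for dividing cells. It was at 514, 420 and 401 CPM in non-treated cells of 24 h and at 222, 220 and 219 CPM with mercury, 49.5% of the non-treated level (adjusted p = 4.95e-11). The 3 mercury libraries were nearly equal and far below the others. With arsenic MKI67 was at 315, 288 and 326 CPM (LFC -0.52 ± 0.11, adjusted p = 0.000403), and with cadmium at 374, 315 and 375 CPM (LFC -0.33 ± 0.11, adjusted p = 0.121). All arsenic and cadmium libraries were below the lowest non-treated library, although the cadmium difference did not pass the test.

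PLK1, the polo-like kinase that acts from centrosome maturation to cytokinesis, was the only one of the 48 genes called lower at 24 h with all 3 metals. The non-treated libraries held 293, 327 and 265 CPM of it, the arsenic libraries 184, 213 and 189, the cadmium libraries 194, 232 and 220, and the mercury libraries 176, 163 and 144. Every treated library was below every non-treated one, and the arsenic and cadmium libraries overlapped each other. Arsenic gave an LFC of -0.59 ± 0.10 (adjusted p = 7.45e-06), cadmium one of -0.46 ± 0.10 (adjusted p = 0.00293) and mercury one of -0.87 ± 0.10 (adjusted p = 1.95e-10). The cadmium call was lost without cadmium replicate 1 and without non-treated replicate 2. PLK1 also varied in the non-treated cells, at 178, 182 and 208 CPM at 12 h against 293, 327 and 265 CPM at 24 h, so its non-treated level was highest at the time at which all metals were called.

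AURKB, the kinase of the chromosomal passenger complex, was at 234, 282 and 199 CPM in non-treated cells of 24 h and at 131, 126 and 145 CPM with mercury (LFC -0.83 ± 0.12, adjusted p = 9.25e-08). With arsenic it was at 162, 169 and 141 CPM (LFC -0.60 ± 0.12, adjusted p = 0.000139) and with cadmium at 180, 183 and 248 CPM (LFC -0.23 ± 0.12, adjusted p = 0.39). The arsenic and mercury libraries overlapped each other and were all below the non-treated ones, whereas cadmium replicate 3 was among the non-treated libraries. TOP2A, the topoisomerase that untangles sister chromatids, was at 2158, 2260 and 1708 CPM in non-treated cells and at 1268, 1238 and 1312 CPM with mercury (LFC -0.68 ± 0.08, adjusted p = 5.03e-11). With arsenic it was at 1688, 1699 and 1716 CPM (LFC -0.26 ± 0.08, adjusted p = 0.0111), where 1 library was above the lowest non-treated one, and the call was lost without non-treated replicate 1 or 2.

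Of the central pair of mitotic entry, CCNB1 passed the test at 24 h of mercury and CDK1 did not, and the difference between them was not tested. CCNB1, cyclin B1, was at 125, 128 and 156 CPM in non-treated cells of 24 h and at 89.7, 66.9 and 88.5 CPM with mercury (LFC -0.74 ± 0.12, adjusted p = 1.61e-06). Its kinase CDK1 was at 118, 113 and 123 CPM and at 99.5, 101 and 101 CPM in the same libraries. All mercury libraries of CDK1 were below the non-treated ones, but the LFC of -0.23 ± 0.11 did not pass the test (adjusted p = 0.0964). CDK1 was not called with any metal at any time, and neither were CENPA, the centromeric histone, the checkpoint genes MAD2L1 and TTK, or UBE2C, a ubiquitin-conjugating enzyme of the anaphase-promoting complex.

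**Figure D2:**
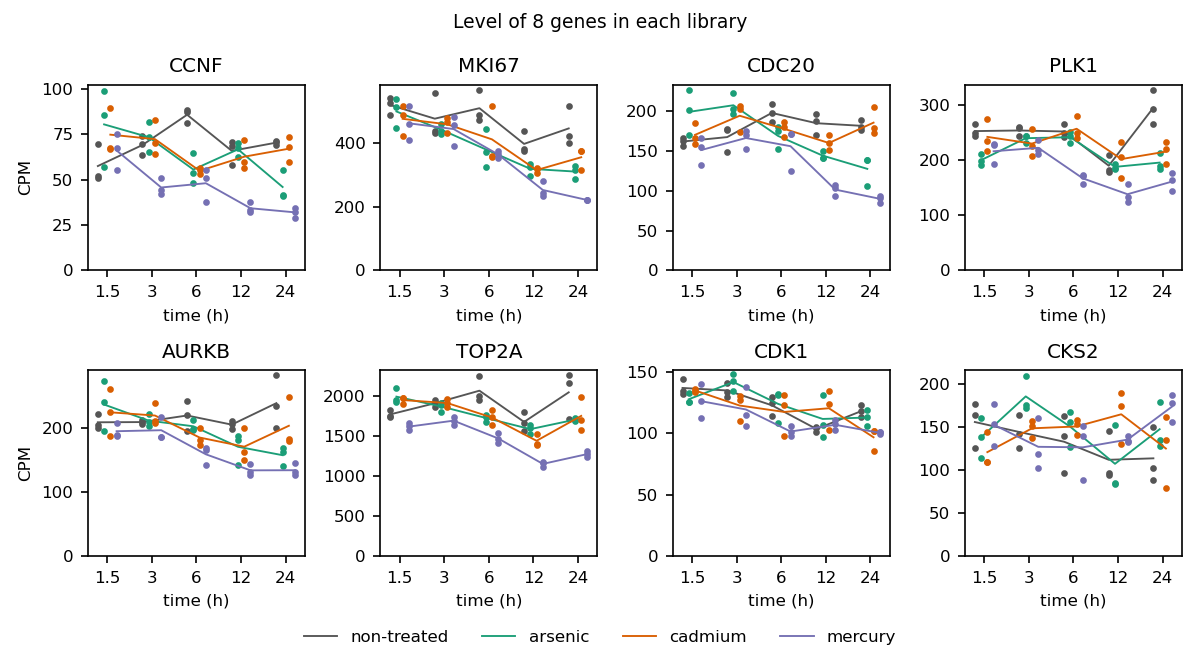
Level of 8 genes (y axes, CPM, from 0) against time (x axes, h, even steps) in non-treated, arsenic, cadmium and mercury libraries; each point is 1 library and each line joins the means of 3 libraries. CCNF, MKI67 and CDC20 end at 24 h of mercury at 29.1 to 34.4, 219 to 222 and 84.6 to 93.8 CPM, below all non-treated libraries, whereas CKS2 ends above them.

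By role, the mercury calls of 24 h were spread over every group of genes. The chromosomal passenger complex had all 4 of its genes lower, with AURKB beside CDCA8 (borealin, LFC -0.71 ± 0.11), BIRC5 (survivin, -0.70 ± 0.09) and INCENP (-0.48 ± 0.18, adjusted p = 0.0373). The INCENP call was lost without mercury replicate 1 or 2 and without non-treated replicate 1 or 2. Both cytokinesis genes were lower, ANLN (anillin) by -0.53 ± 0.10 and ECT2, which activates RhoA at the cleavage site, by -0.37 ± 0.13. The ECT2 call was lost without mercury replicate 1 or 2 or non-treated replicate 3. CDCA3, which takes part in the destruction of the mitotic brake WEE1, went from 88.1 ± 9.2 CPM (SD, n = 3) to 48.9 ± 3.2 CPM (LFC -0.85 ± 0.12, adjusted p = 1.19e-07).

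Among the spindle and microtubule proteins, 5 of 6 tested were lower at 24 h of mercury. DLGAP5, which stabilises kinetochore fibres, went from 86.3 ± 2.4 to 47.1 ± 7.4 CPM (LFC -0.87 ± 0.13, adjusted p = 3.51e-07), and TPX2, the activator of Aurora A, from 725 ± 79.7 to 466 ± 35.6 CPM (LFC -0.64 ± 0.08). ASPM and HMMR, which act at spindle poles, had LFCs of -0.58 ± 0.12 and -0.53 ± 0.12, and PRC1, the bundler of the central spindle, one of -0.57 ± 0.14. CKAP2 was not called at 24 h (LFC -0.13 ± 0.15). Of the 6 mitotic kinesins 4 were lower, led by KIF20A at -0.79 ± 0.12, while KIF11 (-0.36 ± 0.15, adjusted p = 0.0784) and KIF2C (-0.13 ± 0.12) did not pass. Of the 6 centromere and kinetochore genes 3 were lower, namely NUF2 (-0.59 ± 0.11), CENPE (-0.49 ± 0.11) and CENPF (-0.45 ± 0.09).

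Among the mitotic kinases and their factor, PLK1 was joined by AURKA (-0.56 ± 0.09) and FOXM1 (-0.40 ± 0.10), and NEK2, a centrosome kinase, did not pass (-0.08 ± 0.17). Of the 4 spindle checkpoint genes, BUB1B (-0.53 ± 0.12) and BUB1 (-0.49 ± 0.11) were lower. In the group around the anaphase-promoting complex, CDC20 was joined by the securin PTTG1 (-0.25 ± 0.08, adjusted p = 0.00795), whereas the separase ESPL1 had an LFC of -0.40 ± 0.21 that did not pass and UBE2C one of -0.07 ± 0.11. CDCA2, which recruits a phosphatase to chromatin at the end of mitosis, was lower by -0.51 ± 0.13.

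The 2 genes higher at 24 h of mercury were the small partners of cyclin-dependent kinases. CKS1B, which also helps the SCF ligase with SKP2 to remove the inhibitor p27, was at 424, 502 and 480 CPM in non-treated cells and at 593, 608 and 598 CPM with mercury (LFC 0.35 ± 0.09, adjusted p = 0.00165). No mercury library overlapped the non-treated ones, and its LFC was 0.10 ± 0.09 with arsenic and -0.01 ± 0.09 with cadmium. CKS2 was at 88.1, 102 and 151 CPM in non-treated cells and at 187, 178 and 156 CPM with mercury (LFC 0.62 ± 0.20, adjusted p = 0.0156). The non-treated libraries of CKS2 were widely spread, and the call was lost without mercury replicate 1 or without non-treated replicate 1 or 2. The only other rise was that of CDCA5, the cohesin-protecting sororin, at 6 h of mercury, from 41.2, 57.0 and 48.2 CPM to 78.9, 71.1 and 56.5 CPM (LFC 0.49 ± 0.14, adjusted p = 0.0198). Its groups overlapped, and the call was lost without 4 of the 6 libraries compared, each left out in turn, and with total counts alone in place of the composition factors.

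**Figure D3:**
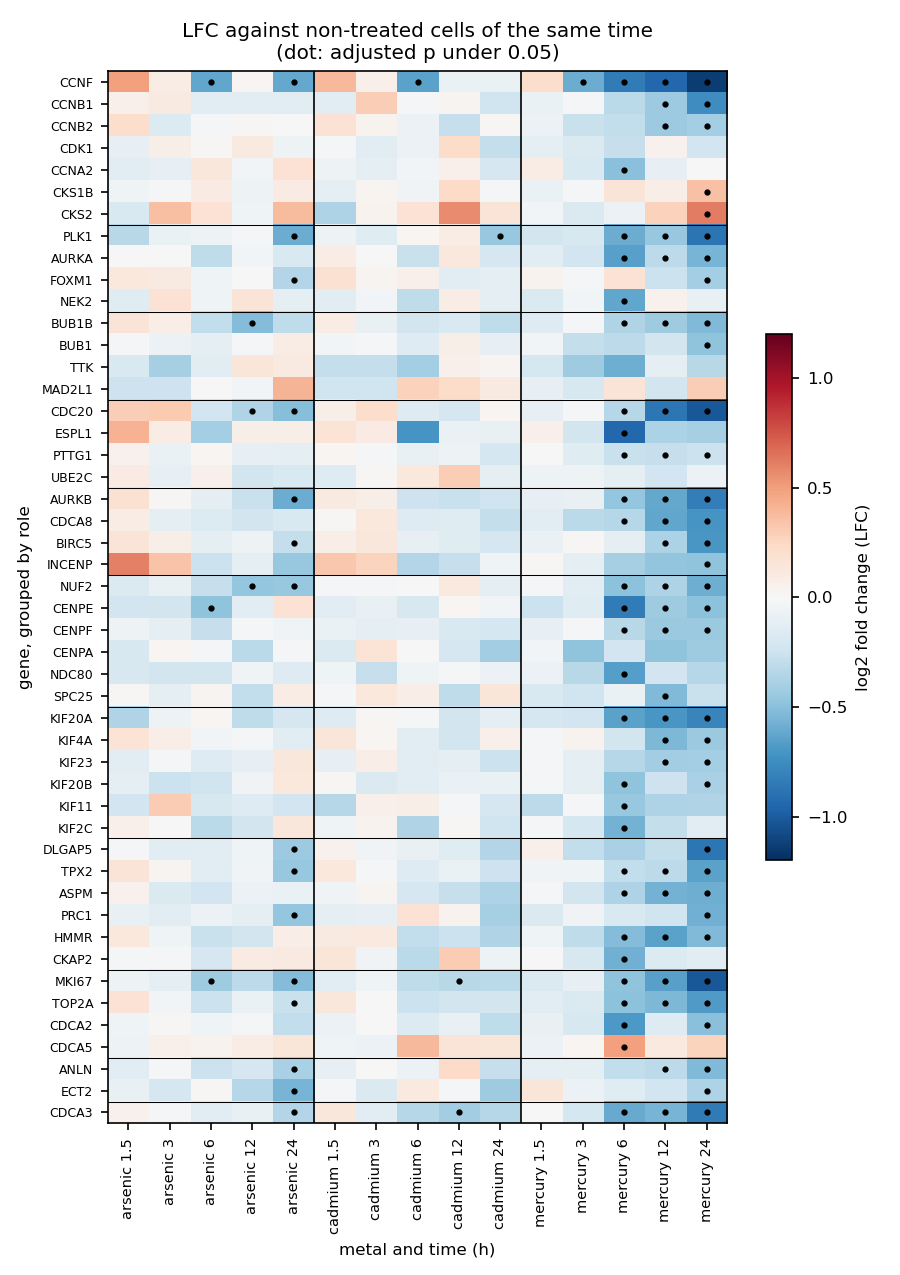
LFC against non-treated cells of the same time (colour, blue for lower and red for higher, from -1.2 to 1.2) for the 48 genes tested (rows, in blocks by role, ordered within a block by the LFC at 24 h of mercury) in the 15 comparisons (columns, by metal and time in h); a dot marks an adjusted p under 0.05. Dots gather in the mercury columns of 6, 12 and 24 h (28, 25 and 34 genes) and in the arsenic column of 24 h (15 genes).

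Of the 48 genes, 40 were lower with mercury at 1 or more of 6, 12 and 24 h, and 18 at all 3, namely ASPM, AURKA, AURKB, BUB1B, CCNF, CDC20, CDCA3, CDCA8, CENPE, CENPF, HMMR, KIF20A, MKI67, NUF2, PLK1, PTTG1, TOP2A and TPX2. Of all genes tested, 2.99%, 7.16% and 13.9% were lower at 6, 12 and 24 h, and their share over several times was not counted. Among the 18, the 6 h call of ASPM, AURKB, BUB1B, CDC20, CDCA8, CENPF, HMMR, PTTG1 and TPX2 was lost without 1 or more of the libraries, left out in turn. So was the 12 h call of AURKA, NUF2, PTTG1 and TPX2, and the 24 h call of PTTG1. A group of 7 genes was called lower at 6 h and not at 24 h (CCNA2, CKAP2, ESPL1, KIF11, KIF2C, NDC80 and NEK2). ESPL1 had the most negative LFC of 6 h, from 30.0 ± 0.2 to 15.6 ± 6.6 CPM (-0.95 ± 0.21, adjusted p = 0.0014). CENPE, the kinesin that carries chromosomes to the spindle equator, went from 172 ± 3.3 to 96.7 ± 3.2 CPM at 6 h (-0.83 ± 0.11, adjusted p = 1.69e-08), and CCNF from 87.3, 81.5 and 88.6 CPM to 50.9, 55.5 and 37.8 CPM (-0.84 ± 0.15, adjusted p = 4.85e-05). In the other direction, 12 genes were called at 24 h and not at 6 h (ANLN, BIRC5, BUB1, CCNB1, CCNB2, DLGAP5, ECT2, FOXM1, INCENP, KIF23, KIF4A and PRC1). Being called at one time and not at another does not show a difference between the times. At 6 h the number of genes lower was 19 to 22 when any 1 of the 6 libraries was left out, and 14 of the 28 calls were kept without each of the 6 libraries, against 28 of 34 at 24 h.

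The test of the difference itself, the LFC of 24 h minus that of 6 h, was added after the values had been seen. It called 4 of 48 genes with mercury, where 5.8% of all genes were called, so the share of these genes was near that of all genes. These were CDC20 (difference -0.67 ± 0.15, adjusted p = 0.00331), BIRC5 (-0.58 ± 0.12, adjusted p = 0.000946), FOXM1 (-0.58 ± 0.14, adjusted p = 0.00661) and MKI67 (-0.53 ± 0.16, adjusted p = 0.0299), all further below the non-treated level at 24 h. The 7 genes called lower at 6 h and not at 24 h were not among them. Leaving out 1 library, 3 to 5 genes were called with a negative difference and 0 to 1 with a positive one. With no filter on low counts, 4 were called with a negative difference and 1 with a positive one. Between 24 and 12 h, 0 of 48 differed with mercury by edgeR or DESeq2 (0.624% of all genes; 6 at an unadjusted p under 0.05).

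**Figure D4:**
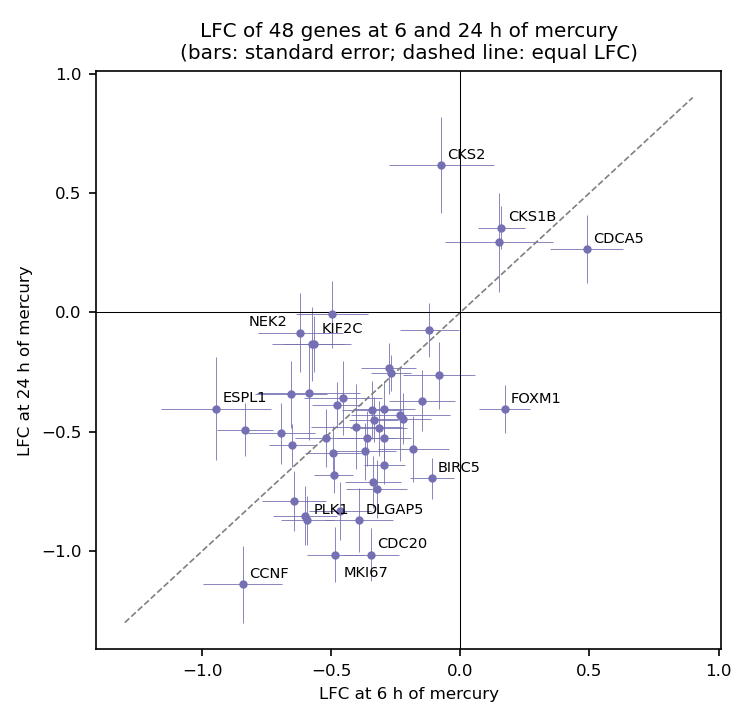
LFC at 6 h (x axis) against LFC at 24 h (y axis) of mercury for the 48 genes, each point with its SE in both directions; the dashed line marks equal LFC. CCNF, MKI67, CDC20 and PLK1 are at the lower end at 24 h (-1.14 to -0.87), FOXM1 and BIRC5 are far below the line, and CKS2 and CKS1B are above 0 at 24 h.

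The 15 genes lower at 24 h of arsenic were ANLN, AURKB, BIRC5, CCNF, CDC20, CDCA3, DLGAP5, ECT2, FOXM1, MKI67, NUF2, PLK1, PRC1, TOP2A and TPX2. All 15 were also lower at 24 h of mercury, in comparisons that share the 3 non-treated libraries. The overlap between these metals was not counted over all genes, so a full overlap is not shown to be particular to the mitosis genes. ECT2 went from 116 ± 5.7 to 78.6 ± 9.7 CPM with arsenic (LFC -0.56 ± 0.13, adjusted p = 0.00107) and to 89.5 ± 13.3 CPM with mercury. None of the 6 kinesins was called by edgeR at 24 h of arsenic, at a median LFC of 0.00. An unadjusted p under 0.05 was reached by 0 of them. Of the 6 kinetochore genes 1 was called, NUF2 (-0.46 ± 0.11, edgeR adjusted p = 0.00178). With 7.75% of all genes lower and only 6 genes in each group, these counts do not set either group apart. Of the 15 calls, 8 were kept without each of the 6 libraries, and the lower count ran from 11 to 15. At 6 h of arsenic the genes called were CCNF (-0.62 ± 0.15), CENPE (-0.49 ± 0.11) and MKI67 (-0.42 ± 0.11), and all 3 calls were lost without arsenic replicate 3, while 1 was left without non-treated replicate 1. At 12 h they were BUB1B (-0.52 ± 0.11), NUF2 (-0.46 ± 0.11) and CDC20 (-0.36 ± 0.11), of which 1 was left without arsenic replicate 1.

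With arsenic, the LFCs of PLK1 and TPX2 differed between 24 and 12 h in the fit over all libraries. The mean level of PLK1 with arsenic was 187.6 CPM at 12 h and 195.3 CPM at 24 h, while that in non-treated cells was 189.7 and 294.9 CPM. The LFC of PLK1 was -0.02 ± 0.10 at 12 h and -0.59 ± 0.10 at 24 h, a difference of -0.58 ± 0.14 (adjusted p = 0.022), and that of TPX2 was -0.04 ± 0.08 and -0.45 ± 0.08, a difference of -0.41 ± 0.11 (adjusted p = 0.0426). These 2 of 48 stood beside 1.57% of all genes, and 0 of them were left without arsenic replicate 1 of 24 h, without non-treated replicate 1 or 2 of 24 h or without non-treated replicate 2 of 12 h, and 1 without each of 5 other libraries. Against 6 h, 2 of 48 genes differed, a share near the 3.1% of all genes. They were PLK1 by -0.53 ± 0.14 (adjusted p = 0.0176) and CENPE by 0.66 ± 0.15 (adjusted p = 0.00362), the latter from -0.49 ± 0.11 at 6 h to 0.17 ± 0.11 at 24 h. That count was 1 without arsenic replicate 1 of 6 or of 24 h, non-treated replicate 3 of 6 h or replicate 2 of 24 h, and 4 without non-treated replicate 3 of 24 h. With cadmium 0 of 48 genes differed between 24 and 12 h (0.381% of all genes; 8 at an unadjusted p under 0.05; 3 by DESeq2; 1 without cadmium replicate 3 of 12 h, cadmium replicate 2 of 24 h or non-treated replicate 3 of 12 h) and 0 between 24 and 6 h (0.624%; 5 at an unadjusted p under 0.05; 1 by DESeq2). The cadmium calls themselves were CCNF at 6 h (-0.65 ± 0.15, adjusted p = 0.00787), CDCA3 (-0.42 ± 0.12, adjusted p = 0.0215) and MKI67 (-0.34 ± 0.11, adjusted p = 0.0496) at 12 h, and PLK1 at 24 h.

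Compared directly, the metals differed most between mercury and the others. Against mercury of the same time, arsenic had 10 of 48 genes higher at 6 h (1.41% of all genes), 15 at 12 h (2.42%) and 20 at 24 h (4.59%), and cadmium 10 (1.64%), 12 (1.48%) and 22 (9.7%). Against mercury of 1.5 h, 3 of the 48 genes were higher with arsenic (0.818% of all genes), namely TOP2A (0.30 ± 0.08, adjusted p = 0.0232), CDC20 (0.40 ± 0.11, adjusted p = 0.0362) and INCENP (0.60 ± 0.17, adjusted p = 0.0446). None was left without arsenic replicate 1 or 2 or mercury replicate 1 or 2, 1 was left without mercury replicate 3, and 5 were called without arsenic replicate 3. At 3 h, 1 of the 48 genes was higher with arsenic than with mercury and 3 were higher with cadmium. Both counts were the same with the replicate numbers added to the fit, where 23 and 61 of all 12341 genes were higher. Leaving out 1 library, they ran from 0 to 1 and from 0 to 3. At 6 h, 1 gene was lower with arsenic than with mercury, or 0 to 1 when 1 library was left out. With the replicate numbers it was again 1, beside 381 of all 12341 genes. At 12 h all 48 LFCs of cadmium against mercury were positive, from 0.04 to 0.86. At 6 h the count of genes higher with arsenic than with mercury was 5 without arsenic replicate 2. It was 6 without arsenic replicate 1 or mercury replicate 1 or 2. The count higher with cadmium than with mercury was 6 and 5 without mercury replicates 1 and 2. At 12 h that of arsenic against mercury was 7 without mercury replicate 2. At 24 h the largest differences of cadmium against mercury were CCNF (1.06 ± 0.16, adjusted p = 6.62e-07) and CDC20 (1.04 ± 0.11, adjusted p = 2.77e-11), and those of arsenic against mercury were CENPE (0.67 ± 0.11, adjusted p = 6.24e-06), HMMR (0.61 ± 0.12) and CCNB1 (0.61 ± 0.12). CKS1B was lower than with mercury in both, by -0.26 ± 0.09 with arsenic (adjusted p = 0.0497) and -0.37 ± 0.09 with cadmium (adjusted p = 0.00158). The call with arsenic was lost without any 1 of the 6 libraries, with total counts alone, with no filter on low counts and with only the libraries compared.

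Arsenic and cadmium differed in fewer genes and in both directions. At 6 h, 0 of 48 were called in either direction by edgeR or DESeq2 (1.18% of all genes; 3 at an unadjusted p under 0.05), and at 12 h, 4 were (5.77% of all genes), which were lower with arsenic (NUF2, UBE2C, ANLN and CKS1B) and numbered 2 without arsenic replicate 1 or 2. At 24 h, 7 were called, where 10.2% of all genes were, so the share of these genes was near that of all genes. CDC20 (-0.54 ± 0.11, adjusted p = 0.000217), CCNF, AURKB and NUF2 were lower with arsenic, and HMMR (0.44 ± 0.12, adjusted p = 0.00938), KIF23 and KIF2C were lower with cadmium. The count of 24 h was 3 without arsenic replicate 1 or cadmium replicate 3, and 4 without arsenic replicate 3 or cadmium replicate 1.

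The non-treated cells were not constant over the 24 h. Against 1.5 h, 11 of 48 genes were lower at 12 h (1.75% of all genes) and 2 at 24 h (1.45%), and 1 was higher at 6 h (0.211%). The last was PTTG1, the securin that holds separase inactive, with 449 ± 33.3 CPM at 1.5 h and 563 ± 46.9 CPM at 6 h (LFC 0.33 ± 0.08, adjusted p = 0.0249), a call that was lost with no filter and without replicate 1 or 2 of 1.5 h or replicate 1 or 3 of 6 h. CCNF, which was called lower at 6 h of each metal, was at an LFC of 0.58 ± 0.15 in the same comparison (adjusted p = 0.0588) and was called by DESeq2, with total counts alone, with no filter, with only the libraries compared and without replicate 3 of 1.5 h. At 12 h the lower genes were ANLN, AURKA, BUB1, CDCA2, CDK1, CENPE, CKAP2, KIF11, KIF23, MKI67 and PLK1, with LFCs of -0.54 to -0.33, and at 24 h CENPE (-0.42 ± 0.11) and KIF23 (-0.40 ± 0.12). The summed level of the non-treated cells was 9261, 9331 and 9906 CPM at 12 h, against 10340 to 10455 CPM at 1.5 h. The count of 12 h was 2 without non-treated replicate 3 of 12 h and 4 without replicate 1 of 1.5 h, and 7 without either replicate 2 of 12 h or replicate 3 of 1.5 h. At 24 h it ran from 0, without replicate 1 or 2 of 24 h or replicate 2 of 1.5 h, to 6 without replicate 3 of 24 h, with 1 left without replicate 1 of 1.5 h.

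Some further mitosis genes were lower as well, whereas genes of replication and S phase were called in both directions with mercury. Of 60 further mitosis genes, 59 were tested, and 26 were lower at 24 h of mercury (13.9% of all genes) and 16 at 24 h of arsenic (7.75%), with medians of -0.34 and -0.10, while 1 was lower with cadmium (0.632%). GTSE1, a G2 microtubule protein, was lower with each metal, by -1.07 ± 0.13 with mercury, -0.65 ± 0.12 with arsenic and -0.42 ± 0.12 with cadmium (adjusted p = 0.0489). PKMYT1, a kinase that holds CDK1 inactive, was lower with mercury (-1.14 ± 0.18, adjusted p = 7.46e-07), while WEE1, which does the same, was not called (-0.10 ± 0.18). Of 15 subunits of the anaphase-promoting complex itself, 4 were lower with mercury (13.9% of all genes) and 2 with arsenic (7.75%), which are few genes in either case. ANAPC7 was lower in both (-0.55 ± 0.14 and -0.42 ± 0.14). Of 44 genes of replication and S phase, 9 were lower and 5 higher with mercury, at a median LFC of -0.15, beside 13.9% of all genes in each direction. MCM7, a subunit of the replicative helicase, was lower by -1.83 ± 0.14 with mercury and -1.17 ± 0.13 with arsenic, and ORC6, of the origin complex, was higher with mercury (1.30 ± 0.18).

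Regulators of these genes moved in both directions at 24 h of mercury. Of 17 genes tested of the DREAM and MuvB complexes and the E2F factors, 4 were lower and 4 higher, beside 13.9% of all genes in each direction. E2F1, which drives the G1 to S transition, was lower with mercury (-0.77 ± 0.14, adjusted p = 2.08e-05) and arsenic (-0.55 ± 0.14, adjusted p = 0.00402), and so was MYBL2 (-0.63 ± 0.14 and -0.47 ± 0.14), whereas the repressor E2F7 was higher with mercury (1.10 ± 0.21, adjusted p = 3.62e-05). Of 13 cell cycle arrest genes tested, 5 were higher and 3 lower with mercury, beside the same 13.9% of all genes in each direction. CDKN1A, which codes for the inhibitor p21, averaged 41.0 ± 2.5 CPM in non-treated cells and 135 ± 11.9 CPM with mercury (SD, n = 3), an LFC of 1.71 ± 0.15 (adjusted p = 1.71e-14). Arsenic cells averaged 46.8 ± 8.3 CPM (LFC 0.18 ± 0.16, adjusted p = 0.513) and cadmium cells 54.7 ± 5.3 CPM (LFC 0.41 ± 0.16, adjusted p = 0.216). GADD45A, a stress gene that restrains CDK1, was higher with every metal, by 1.89 ± 0.17 with mercury, 1.04 ± 0.17 with arsenic and 0.84 ± 0.17 with cadmium. The part of these regulators in the levels of the mitosis genes was not tested.

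The letters of the promoters described above were set beside the LFCs for the 41 tested genes that have a promoter entry. At 24 h of mercury, 21 of 30 genes with TTTGAA were lower, at a median of -0.47, and 6 of 11 without it, at a median of -0.26. At 6 h the numbers were 16 of 30 (-0.35) and 8 of 11 (-0.50), so the order of the medians was the reverse at 6 h. At 12 h they were 17 of 30 (-0.43) and 5 of 11 (-0.28), in the order of 24 h. At 24 h of arsenic they were 11 of 30 (-0.17) and 1 of 11 (0.09). These values are a description over few genes, and no difference between genes with and without the letters was tested.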

How the data were processed

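The authors sequenced QuantSeq 3′ mRNA libraries, which read the ends of transcripts, and per the labels aligned the reads to GRCh38 with STAR 2.7.9a. The deposited values are raw counts per gene. Reads shared by overlapping genes were not counted per the study's methods, which can leave such genes at 0. The 92 spike-in rows held 0 counts. The members and all gene lists were chosen with earlier results of these data known.

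Counts of 60 libraries were filtered with filterByExpr (minimum 10 counts, 15 in total), which left 12341 genes, scaled by TMM (factors 0.934 to 1.03) and tested with edgeR 4.0.16 (R 4.3.3) by the quasi-likelihood test, with 20 group means in one fit and Benjamini-Hochberg adjustment over all genes of each comparison. A call needs an adjusted p under 0.05. The common biological coefficient of variation was 0.12. There were 15 comparisons with non-treated cells, 15 between metals, 4 among non-treated times and 3 differences of 24 h and 12 h effects, with 3 of 24 h and 6 h added later. Depth, at 39 or more counts per gene and library, limits the precision for the low genes. The scripts were tested on simulated data. Values in every library were given for the 3 of the genes with the largest absolute LFC among those called at 24 h of each metal and a mean of at least 10 counts, for CDK1, CCNB1, PLK1, TOP2A and MKI67, and for the genes that were higher; of each further list, up to 3 genes were eligible by the same rule, and CDKN1A, GADD45A, E2F1, MYBL2 and WEE1 in any case. Alternatives were DESeq2 1.42.0, RLE size factors, total counts alone, no filter and a stricter filter (20 counts in 6 libraries), only the libraries compared, a replicate block and leaving out each library in turn.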

Additional observations from a re-analysis of the deposited data

Results flagged for a closer look

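In 8 cases the LFC of a gene against non-treated cells differed between times under the same metal by edgeR's quasi-likelihood test of that difference, in 1 fit over all groups. With arsenic, the LFC at 24 h minus that at 12 h was -0.576 for PLK1 and -0.410 for TPX2. The LFC at 24 h minus that at 6 h was 0.662 for CENPE and -0.533 for PLK1 with arsenic, and -0.668 for CDC20, -0.531 for MKI67, -0.575 for FOXM1 and -0.583 for BIRC5 with mercury. The contrasts between 24 and 6 h were added after the values had been seen. The share of the genes that they called was near that of all genes, 5.8% with mercury and 3.1% with arsenic. The level of PLK1 in non-treated cells, on which its differences rest, was 178 to 208 CPM at 12 h and 265 to 327 CPM at 24 h.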

How the results depend on the processing

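Of the 113 calls of single genes against non-treated cells, DESeq2 kept 113, total counts alone 112, a stricter filter 112, RLE size factors 110, the libraries compared alone 100 and no filter 99, and 92 were kept under every one of these and the replicate block. Without each library in turn, 67 were kept. No called LFC changed sign under these settings or without any 1 library. No pairing by replicate number was seen between treated and non-treated libraries of the same time (correlations of deviations from the group means over 45 pairs -0.278 to 0.0837). Such correlations can be low through counting noise, so they do not tell whether libraries of the same number came from the same experiment. With the replicate block 112 calls were kept and the genes lower with mercury numbered 27, 25 and 32 at 6, 12 and 24 h, as without it. TMM factors moved LFCs against total counts by at most 0.081.

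DESeq2 gave 1 gene lower at 1.5 h of arsenic, 5 at 6 h of arsenic, 3 at 6 h and 5 at 24 h of cadmium, and 6 in non-treated cells of 24 h against 1.5 h. For the 24 h effect against that of 12 h it gave 3 lower with cadmium. Against that of 6 h it gave 3 lower and 1 higher with arsenic, and 1 lower with cadmium. Total counts gave 2 at 3 h of mercury and 2, 5 and 5 at 6, 12 and 24 h of cadmium. RLE size factors gave 1 at 12 h of cadmium and 4 in non-treated cells of 24 h, as did the stricter filter. Without a filter 1 was lower at 12 h of cadmium, 6 were higher with arsenic than with mercury at 6 h, and 1 was lower for arsenic at 24 h against 12 h. With the libraries compared alone, 3 differed between arsenic and cadmium at 24 h and 0 for arsenic between 24 and 12 h. At 6 h of mercury the genes lower, 27 in the main fit, numbered 36 with total counts and 30 with DESeq2. They numbered 28 with the stricter filter, 25 with RLE size factors, and 21 without a filter or with the libraries compared alone. At 24 h of arsenic, with 15 in the main fit, 13 were lower without a filter and 11 with the libraries compared alone. The cause was not tested.

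Leaving out 1 library, the genes lower numbered 0 to 1 at 3 h of mercury, 0 to 2 at 6 h and 1 to 3 at 12 h of arsenic, and 0 to 4, 0 to 2 and 0 to 4 at 6, 12 and 24 h of cadmium. They numbered 2 to 8 and 0 to 6 in non-treated cells of 12 and 24 h. For arsenic against mercury the genes higher numbered 5 to 7 at 6 h and 7 to 15 at 12 h, for cadmium against mercury 5 to 10 at 6 h, and for arsenic against cadmium 2 to 6 were called at 12 h and 3 to 10 at 24 h. Between 24 and 12 h they were 0 to 2 for arsenic and 0 to 1 for cadmium, and between 24 and 6 h 1 to 4 for arsenic. Depth limits the genes with few counts, such as ESPL1.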

Other observations

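At 1.5 h, 2 of the 48 genes stood highest with arsenic against non-treated cells, a choice made after their values were seen. INCENP, the scaffold of the chromosomal passenger complex, had an LFC of 0.61 ± 0.17 (edgeR adjusted p = 0.13) and CCNF one of 0.49 ± 0.15 (adjusted p = 0.194), so neither passed the test in the fit over all libraries. CCNF was at 51.0, 52.0 and 69.6 CPM in non-treated cells and at 85.6, 99.0 and 56.9 CPM with arsenic, and the groups overlapped. Without arsenic replicate 3, the library with 56.9 CPM, both were called higher, and so was CDC20. CCNF in non-treated cells of 6 h, at 81.5 to 88.6 CPM, was above every non-treated library of the other times.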
